A study of Mus musculus with 9 samples.

Results

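DNA replication genes are described here as a set of 40 genes chosen by name: the genes for origin licensing, the replicative helicase, the polymerases and primase, the sliding clamp with its loader and the single-strand binding complex, flap removal and ligation, and nucleotide supply. Each of the 40 symbols matched 1 row among the 53801 rows of a table of bulk RNA-seq counts, and all 40 were among the 22452 genes that passed the filter on low counts. The 9 libraries came from cultured mouse spermatogonial stem cells (SSCs), the germline cells that sustain sperm production, derived from Prmt5 flox/flox; Rosa26-CreERT2 mice. All 9 shared treatment with 4-hydroxytamoxifen (4OHT, 1 µM), which activates the CreERT2 recombinase and deletes the floxed Prmt5 gene, so that the controls used here carried the knockout too. 3 libraries were from cells with 4OHT alone, 3 are labelled MU and 3 are labelled OE. MU is read here as the catalytically dead construct PRMT5 (E444Q) and OE as wild-type PRMT5 (WT), both brought in by lentivirus, a reading taken from the study's text because the labels give only the abbreviations. Rosa26 drives the recombinase in nearly all cell types, the mice's age is not given, and ethanol-treated cells that kept Prmt5 were not analysed here. Nothing states that the 3 libraries of a group came from separate cultures, so p-values measure the spread between these libraries, which may be technical. The comparisons ask whether either form of PRMT5, a protein arginine methyltransferase, shifts the transcripts of the replication machinery in knockout cells, and whether the 2 forms differ.

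DNA replication is prepared by the origin recognition complex, which with CDC6 and CDT1 loads the ring of MCM subunits onto DNA. The ring becomes an active helicase when CDC45 and the GINS complex join it, polymerase alpha with primase lays down primers, and polymerases delta and epsilon copy the strands while held by the PCNA clamp. Many of these genes are transcribed under the control of E2F factors and pocket proteins as cells enter S phase, so their transcripts are widely read as markers of cycling cells. Undifferentiated and differentiating spermatogonia both divide by mitosis, whereas feeder fibroblasts treated with mitomycin, as used in the study's chemical screen, are arrested. Whether feeders in the cultures sequenced here were so treated is not stated.

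The DNA just before the start sites is shown for 4 members on which the results turn. Mcm6 and Mcm5 carried the most E2F words among members with a promoter window and rose by unequal amounts, Pcna rose the most, and Rrm2 was the only member that fell. Sequences are from RefSeq on GRCm38.p6, read 5′ to 3′ on the strand of the gene and ending at the base before the RefSeq start site. GENCODE, used here for gene coordinates, places the starts of Pcna and Rrm2 further upstream. By GENCODE the Pcna stretch lies wholly inside the gene, and the end of the Rrm2 stretch runs into its gene. Capitals mark the E2F words TTTCCCGC, TTTGGCGC, TTTGCCGC and TTTCGCGC, the CCAAT box (CCAAT) and the GC box (GGGCGG), each on either strand. Where a forward and a reverse E2F word overlap, the capitals run across both.
Mcm6 (chr1:128359706-128359835, minus strand): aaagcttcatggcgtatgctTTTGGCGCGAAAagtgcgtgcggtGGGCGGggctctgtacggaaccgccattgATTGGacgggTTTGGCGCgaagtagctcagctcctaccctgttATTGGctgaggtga
Mcm5 (chr8:75109339-75109508, plus strand): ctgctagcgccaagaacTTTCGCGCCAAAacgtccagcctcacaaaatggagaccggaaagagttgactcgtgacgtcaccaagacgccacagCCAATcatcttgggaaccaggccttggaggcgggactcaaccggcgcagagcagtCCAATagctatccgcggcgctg
Pcna (chr2:132253181-132253310, minus strand): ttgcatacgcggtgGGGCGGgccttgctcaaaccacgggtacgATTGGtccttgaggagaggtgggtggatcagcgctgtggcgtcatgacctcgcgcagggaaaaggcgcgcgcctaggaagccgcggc
Rrm2 (chr12:24708124-24708253, plus strand): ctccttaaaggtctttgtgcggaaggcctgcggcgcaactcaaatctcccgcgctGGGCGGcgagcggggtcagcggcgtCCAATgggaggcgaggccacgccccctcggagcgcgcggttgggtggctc

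Within the 250 bases before the start site, the window held 3 E2F words in Mcm6, beginning 110, 106 and 47 bases before the start, and 2 in Mcm5, beginning 153 and 149 bases before it. No such word lay in the windows of Pcna and Rrm2, which by GENCODE lie partly inside these genes. A window was found for 33 of the 40 members, and 9 of these 33 (27.3%) held an E2F word: Orc1, Orc3, Cdc6, Mcm5, Mcm6, Mcm7, Gins3, Pola1 and Rfc3. Among all 27025 genes with windows of the same length, 2.2% held one. The CCAAT box was present in 66.7% of the 33 members against 37.5% of all genes, and the GC box in 69.7% against 35.4%. The cell-cycle homology words TTTGAA and TTCGAA were about as frequent in members (18.2%) as in all genes (19.6%). These are matches of letters, not bound sites, and a missing word says nothing about a factor. The members with and without an E2F word had median log2 fold changes against 4OHT alone of 0.40 and 0.40 for PRMT5 (E444Q) and of 0.43 and 0.41 for PRMT5 (WT), given as a description.

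Library totals were 78751996 to 95370711 counts with 4OHT alone, 192033300 to 365719548 in the MU libraries and 79941857 to 154557863 in the OE libraries. Every MU library was thus deeper than every library of the other groups. Totals run at about 4 counts per read pair. Levels below are CPM, counts brought to a common library size after scaling by the trimmed mean of M values (TMM). Prmt5 itself was at 28.2 to 32.0 CPM with 4OHT alone, 145 to 147 CPM in the libraries labelled MU and 1071 to 1085 CPM in those labelled OE, so the Prmt5 transcript was at unequal levels with the constructs. Counts per gene do not show which exons were read, so the deletion itself was not checked. 1 library stood apart within its group: the third 4OHT-alone library differed from the others by a chi-square per gene of 18.3 and 12.7, against 5.83 between those and 3.29 to 6.1 within the other groups. Among the members it was the highest of the 3 4OHT-alone libraries for 19 genes and the lowest for 13. Markers of other cells also moved with the groups. The summed level of 16 germ cell markers was 2677 to 2725 CPM with 4OHT alone, 4008 to 4108 CPM with PRMT5 (E444Q) and 4311 to 4381 CPM with PRMT5 (WT), and all 16 were detected at a mean of at least 1 CPM. The summed level of 16 fibroblast feeder markers was 12870 to 15640, 6585 to 6656 and 5103 to 5216 CPM in the same order. 16 macrophage markers summed to 227.7 to 249.7, 1157 to 1190 and 2245 to 2370 CPM, carried mostly by Lyz2, with Cx3cr1 at or below 0.26 CPM in every library. Against 4OHT alone 11 of the 16 were called higher with each construct, and C1qa, C1qb, C1qc and Apoe were called lower. 8 Sertoli cell markers summed to 129.4 to 158.5, 54.96 to 57.13 and 47.29 to 51.07 CPM, with the defining gene Amh at or below 0.17 CPM. This sum was carried mostly by Inhbb, and with each construct 3 of the 8 were called higher and 3 lower. Among all genes tested, 29.5% (MU) and 29.9% (OE) were called higher against 4OHT alone, and 26.5% and 27.9% lower. The Sertoli counts in both directions are near these shares, as are the lower calls of macrophage markers. The 11 of 16 macrophage markers called higher lie above them. In bulk RNA, fewer cells of a type and less RNA per cell cannot be told apart.

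Both constructs went with higher transcript levels across most of the replication machinery. With PRMT5 (WT), 36 of the 40 genes were upregulated against 4OHT alone and 1, Rrm2, was downregulated (edgeR adjusted p under 0.05), while 29.9% of all genes tested were called higher and 27.9% lower in that comparison. With PRMT5 (E444Q), 33 were upregulated and Rrm2 again was downregulated, beside 29.5% of all genes called higher and 26.5% called lower. The median log2 fold change of the 40 genes was 0.42 with PRMT5 (WT) and 0.40 with PRMT5 (E444Q), where the median of all genes tested was 0.02 and 0.04. The 2 comparisons share their control libraries, so they are not independent of each other. Library by library, the median of the 40 log2 differences from the 4OHT-alone mean was -0.02 to 0.02 in the controls, 0.39 to 0.41 with PRMT5 (E444Q) and 0.42 to 0.45 with PRMT5 (WT). Without the 4OHT-alone library that stood apart, 37 genes were called higher with PRMT5 (WT) and 36 with PRMT5 (E444Q), at medians of 0.41 and 0.40. The higher levels went along with higher germ cell markers (12 of 16 called higher and 4 lower in each comparison, medians 0.72 and 0.65) and with lower fibroblast markers (16 of 16 called lower with PRMT5 (WT), 15 of 16 with PRMT5 (E444Q)). They also went along with macrophage markers at median log2 fold changes of 3.62 (WT) and 2.70 (E444Q). The 4 germ cell markers called lower were Gfra1 (-2.09 with PRMT5 (WT) and -2.13 with PRMT5 (E444Q)), Zbtb16 (-0.54 and -0.67), Nanos2 (-0.67 and -1.03) and Nanos3 (-0.57 and -0.33). The part of cell composition in the members' change was not tested.

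**Figure D1:**
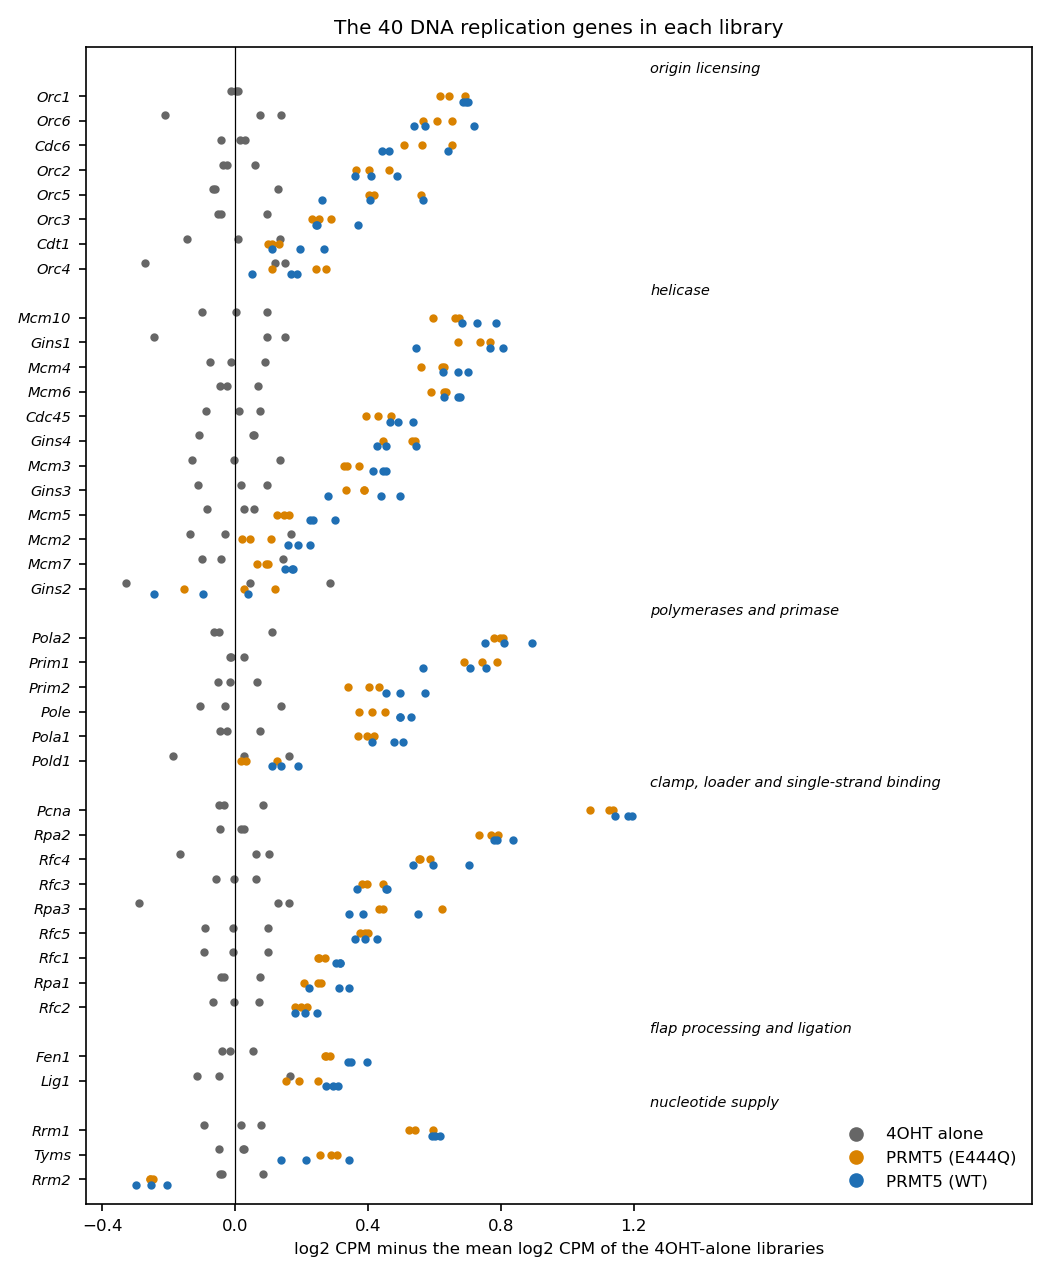
Each point is 1 library: the horizontal axis gives log2 CPM minus the mean log2 CPM of the 3 4OHT-alone libraries, and rows are the 40 genes by role, ordered by their change with PRMT5 (WT). Most orange and blue points lie right of all grey points, those of Rrm2 lie left of them, and with at least 1 construct Orc4, Cdt1, Mcm2, Mcm7, Gins2, Pold1 and Lig1 overlap with the controls.

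Origin licensing genes were called higher for 6 of 8 with PRMT5 (E444Q) and 7 of 8 with PRMT5 (WT). Orc1, the largest subunit of the origin recognition complex and the one whose level varies with the cell cycle, moved most. It was at 37.6, 37.2 and 37.7 CPM with 4OHT alone, 57.5, 58.5 and 60.6 CPM with PRMT5 (E444Q), and 60.9, 60.4 and 60.7 CPM with PRMT5 (WT). No control library came near a construct library, and the log2 fold changes were 0.65 (SE 0.0479, edgeR adjusted p = 5.08e-08) and 0.69 (SE 0.0482, edgeR adjusted p = 2.38e-08). Orc4, another subunit, moved least with PRMT5 (WT): 46.5, 45.6 and 34.8 CPM in controls, 49.7, 45.3 and 50.7 CPM with PRMT5 (E444Q), and 43.5, 47.1 and 47.7 CPM with PRMT5 (WT). Its groups overlapped, and the library at 34.8 CPM was the one that stood apart; without it the log2 fold change with PRMT5 (WT) was -0.01, against 0.13 with it. Without the first control library Orc4 was called with PRMT5 (E444Q), at 0.26 (edgeR adjusted p = 0.039), against 0.20 with it. The other subunits Orc2, Orc3, Orc5 and Orc6 had log2 fold changes of 0.29 to 0.61 with PRMT5 (WT), all called. Exons of Nif3l1 on the opposite strand overlap 29.8% of the Orc2 exons. The loading factor Cdc6 rose by 0.58 and 0.52 (PRMT5 (E444Q), then PRMT5 (WT), as in all such pairs below). Its partner Cdt1 was called only with PRMT5 (WT), at 0.19 (SE 0.0661, edgeR adjusted p = 0.0254) against 0.11 with PRMT5 (E444Q), and the call did not hold without the first control library (adjusted p = 0.143), the third PRMT5 (WT) library (0.158) or the second or the third PRMT5 (E444Q) library (0.0558 and 0.0563), while without the third control library Cdt1 was also called with PRMT5 (E444Q) (adjusted p = 0.0207).

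Helicase genes were called higher for 9 of 12 with PRMT5 (E444Q) and 11 of 12 with PRMT5 (WT). The largest rise with PRMT5 (WT) was that of Mcm10, which acts in helicase activation: 49.8, 53.5 and 57.1 CPM in controls, 84.6, 80.8 and 85.2 CPM with PRMT5 (E444Q), and 85.7, 88.6 and 92.0 CPM with PRMT5 (WT). The construct libraries lay well above the controls, with log2 fold changes of 0.64 (SE 0.057, edgeR adjusted p = 3.33e-07) and 0.73 (SE 0.0573, edgeR adjusted p = 8.4e-08). Cdc45, the helicase cofactor, rose by 0.43 and 0.50. Of the GINS subunits, Gins1 rose by 0.72 and 0.70, Gins4 by 0.51 and 0.47, and Gins3 by 0.37 and 0.41. Gins2 was the exception: 14.8, 22.6 and 19.1 CPM in controls, 16.7, 20.2 and 18.9 CPM with PRMT5 (E444Q), and 15.7, 17.4 and 19.1 CPM with PRMT5 (WT). All 6 construct libraries lay within the range of its controls, and the log2 fold changes of -0.02 (SE 0.131) and -0.12 (SE 0.132) were not called and turned positive in some settings, while without the first control library Gins2 was called lower with PRMT5 (WT), at -0.28 (edgeR adjusted p = 0.0468). The Gins2 exons overlap those of Gse1 on the opposite strand over 67.3% of their length, and Gse1 stood at 164 to 212 CPM, so without strand information the counts of Gins2 are uncertain. Counting with strand is not given in the sources used here.

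The 6 genes of the MCM ring, whose products are present in equal numbers in each ring, did not move by equal amounts. Mcm4 rose by 0.60 and 0.67, Mcm6 by 0.62 and 0.66, Mcm3 by 0.34 and 0.43, and Mcm5 by 0.14 and 0.25. Mcm2 and Mcm7 were called only with PRMT5 (WT), at 0.19 (SE 0.0654, edgeR adjusted p = 0.0256) and 0.16 (SE 0.0576, edgeR adjusted p = 0.0272), and had log2 fold changes of 0.05 and 0.08 with PRMT5 (E444Q). These 2 calls were lost without the first control library (adjusted p = 0.149 and 0.15), and also without the second control library, the second or the third PRMT5 (E444Q) library or the third PRMT5 (WT) library, and that of Mcm2 without the second PRMT5 (WT) library. Without the third control library both genes were called with PRMT5 (E444Q) as well (adjusted p = 0.0193 and 0.00283). The Mcm5 call with PRMT5 (E444Q) was lost without the first control library (adjusted p = 0.104), the second or the third PRMT5 (E444Q) library (0.113 and 0.0951) or the third PRMT5 (WT) library (0.0527), and with RLE factors (0.0646) or counts divided by 4 (0.0533).

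Shares within each library remove the scaling between libraries. Summed per kilobase of exon, Mcm6 made up 15.2, 14.9 and 14.6% of the 6 MCM transcripts in controls, 18.6, 18.2 and 18.6% in the PRMT5 (E444Q) libraries, and 17.7, 17.9 and 18.2% in the PRMT5 (WT) libraries. The share of Mcm4 was also higher with both constructs (13.4 to 16.2% in controls, 17.3 to 18.0% and 17.1 to 18.0% with the constructs), and those of Mcm2, Mcm5 and Mcm7 were lower, without overlap. Mcm7 fell from 18.4, 18.5 and 19.4% to 16.1, 15.9 and 16.04% in the PRMT5 (E444Q) libraries and to 16.2, 15.8 and 15.9% in the PRMT5 (WT) libraries. The share of Mcm3 overlapped between all groups (18.6 to 19.9% in controls, 19.6 to 20.3% with the constructs). The exact permutation test over libraries, two-sided, gave p = 0.1 for each share whose groups did not overlap, the smallest that 3 against 3 libraries allow. Over the 30 shares computed in 7 complexes, 21 did not overlap between PRMT5 (WT) and 4OHT alone and 22 between PRMT5 (E444Q) and 4OHT alone, and the smallest Benjamini-Hochberg adjusted p was 0.143 and 0.136. Between the constructs 3 did not overlap: Mcm6 and Prim1 were higher and Prim2 lower with PRMT5 (E444Q) (smallest adjusted p 0.818). A larger share of 1 subunit lowers those of the others, so the shares are not separate results. No such count was made over all genes. Mcm7 has a copy, Gm5487, that matches its transcript over up to 2157 bases with a best identity of 99.0% and was not analysed here.

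**Figure D2:**
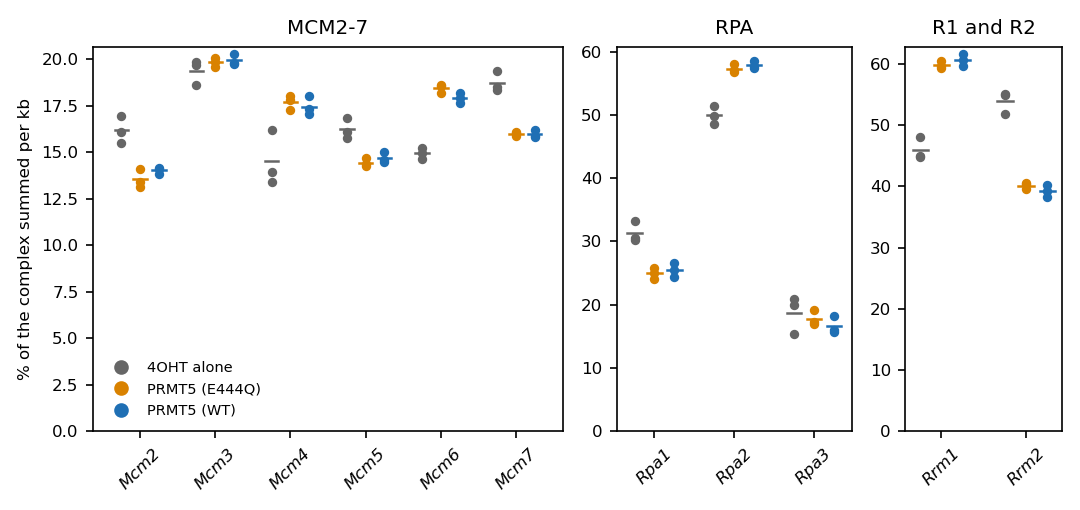
Each point is 1 library and each bar the group mean: the vertical axis is the share (%) of a gene in the summed CPM per kilobase of its complex, for the MCM ring, replication protein A and the 2 subunits of ribonucleotide reductase. The construct libraries have larger shares of Mcm4, Mcm6, Rpa2 and Rrm1 and smaller shares of Mcm2, Mcm5, Mcm7, Rpa1 and Rrm2 than the controls.

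Of the 6 polymerase and primase genes, 5 were called higher with each construct. Pola2, the accessory subunit of polymerase alpha, rose most, from 21.2, 21.4 and 23.9 CPM in controls to 38.4, 38.0 and 38.7 CPM with PRMT5 (E444Q) and 38.8, 37.3 and 41.1 CPM with PRMT5 (WT). All construct libraries exceeded all controls, with log2 fold changes of 0.79 (SE 0.0644, edgeR adjusted p = 1.37e-07) and 0.82 (SE 0.0648, edgeR adjusted p = 9.46e-08). The catalytic primase subunit Prim1 rose by 0.74 and 0.68, and its large partner Prim2 by 0.39 and 0.51. The catalytic subunit Pola1 rose by 0.40 and 0.47, and Pole, the catalytic subunit of the leading-strand polymerase epsilon, by 0.41 and 0.50. Pold1, the catalytic subunit of the lagging-strand polymerase delta, was not called: 129, 150 and 164 CPM in controls, 150, 160 and 149 CPM with PRMT5 (E444Q), and 159, 168 and 162 CPM with PRMT5 (WT). Its groups overlapped, and the log2 fold changes were 0.05 (SE 0.0722) and 0.14 (SE 0.0724). Without the third control library Pold1 was called with PRMT5 (WT), at 0.21 (edgeR adjusted p = 0.00712).

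All 9 genes of the clamp, its loader and the single-strand binding complex were called higher with both constructs. Pcna, the sliding clamp (chr2:132249162-132253314, GRCm38), had the largest change of the 40. It was at 77.6, 71.6 and 70.8 CPM with 4OHT alone, 161, 154 and 160 CPM with PRMT5 (E444Q), and 166, 162 and 168 CPM with PRMT5 (WT). The construct libraries lay around 2.16-fold and 2.25-fold above the controls (log2 fold changes of 1.11, SE 0.0495, and 1.17, SE 0.0497, with edgeR adjusted p = 3.45e-10 and 1.61e-10). The pseudogene Pcna-ps2, which matches the Pcna transcript over up to 781 bases with a best identity of 99.2%, went the other way, from 17.8, 15.2 and 11.6 CPM in controls to 2.97, 2.45 and 2.55 CPM and to 2.98, 2.37 and 2.88 CPM. How reads were divided between the 2 rows is not known, so the values of both are uncertain. Their sum was 82.4 to 95.4 CPM in controls, 156.0 to 164.2 CPM with PRMT5 (E444Q) and 164.4 to 170.7 CPM with PRMT5 (WT), a ratio of 1.82 and 1.91.

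Among the subunits of replication factor C, which opens the clamp and loads it, Rfc4 rose by 0.56 and 0.61, Rfc3 by 0.41 and 0.43, Rfc5 by 0.39 and 0.39, and Rfc1 by 0.26 and 0.31. Rfc2 moved least: 62.9, 60.2 and 66.4 CPM in controls, 71.5, 73.3 and 72.4 CPM with PRMT5 (E444Q), and 74.8, 73.0 and 71.4 CPM with PRMT5 (WT). Its groups still did not overlap with the controls, at log2 fold changes of 0.20 (SE 0.0501, edgeR adjusted p = 0.00392) and 0.21 (SE 0.0503, edgeR adjusted p = 0.00253). Exons of Lat2 on the opposite strand overlap 15.1% of the Rfc2 exons, and the strand setting of the counts is not given. Replication protein A, which coats single-stranded DNA, showed an unequal change among its 3 subunits: 0.77 and 0.80 for Rpa2, 0.49 and 0.41 for Rpa3, and 0.24 and 0.29 for Rpa1. The share of Rpa2 in the complex was 48.6 to 51.4% in controls, 56.8 to 58.1% with PRMT5 (E444Q) and 57.4 to 58.6% with PRMT5 (WT).

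Both genes of flap processing and ligation were called higher. Fen1, the flap endonuclease, was at 75.1, 78.8 and 73.8 CPM in controls, 91.7, 91.5 and 92.5 CPM with PRMT5 (E444Q), and 99.8, 96.1 and 96.7 CPM with PRMT5 (WT), with log2 fold changes of 0.28 (SE 0.0452) and 0.36 (SE 0.0455). An antisense gene, Gm10143, covers 78.8% of its exons and was at 1.28 to 8.60 CPM, at its highest in the third control library. Lig1, which seals Okazaki fragments, was at 151, 158 and 183 CPM in controls, 187, 181 and 194 CPM with PRMT5 (E444Q), and 200, 202 and 197 CPM with PRMT5 (WT). With PRMT5 (E444Q) its groups overlapped and the call (0.19, edgeR adjusted p = 0.0188) was lost without the first control library (adjusted p = 0.102) or the third PRMT5 (E444Q) library (0.111).

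The nucleotide supply genes diverged. Rrm1 encodes the large subunit and Rrm2 the small, S-phase subunit of ribonucleotide reductase, which makes the deoxynucleotides for replication. Rrm1 rose from 153, 136 and 147 CPM in controls to 208, 211 and 219 CPM with PRMT5 (E444Q) and 220, 222 and 218 CPM with PRMT5 (WT), by 0.55 (SE 0.0505, edgeR adjusted p = 4.55e-07) and 0.60 (SE 0.0506, edgeR adjusted p = 1.68e-07). Rrm2 (chr12:24708241-24714146) went from 41.4, 41.6 and 45.3 CPM in controls to 35.7, 35.8 and 35.95 CPM with PRMT5 (E444Q) and to 35.9, 34.8 and 37.1 CPM with PRMT5 (WT). Every construct library lay below every control, and the decrease was alike in the 2 comparisons, with log2 fold changes of -0.26 (SE 0.0562, edgeR adjusted p = 0.00141) and -0.25 (SE 0.0566, edgeR adjusted p = 0.00156). Per kilobase, Rrm1 accounted for 44.9 to 48.1% of the 2 subunits' transcripts in controls and for 59.4 to 60.5% and 59.7 to 61.7% with the constructs. In CPM, without division by exon length (11012 bases for Rrm1 and 2771 for Rrm2, unions over transcripts), Rrm1 was the higher in every library. Tyms, the thymidylate synthase, was at 18.3, 17.4 and 18.3 CPM in controls, 21.5, 22.3 and 22.02 CPM with PRMT5 (E444Q), and 19.8, 20.9 and 22.8 CPM with PRMT5 (WT). It was called at 0.28 and 0.23, the latter lost without the third PRMT5 (WT) library (adjusted p = 0.0889).

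**Figure D3:**
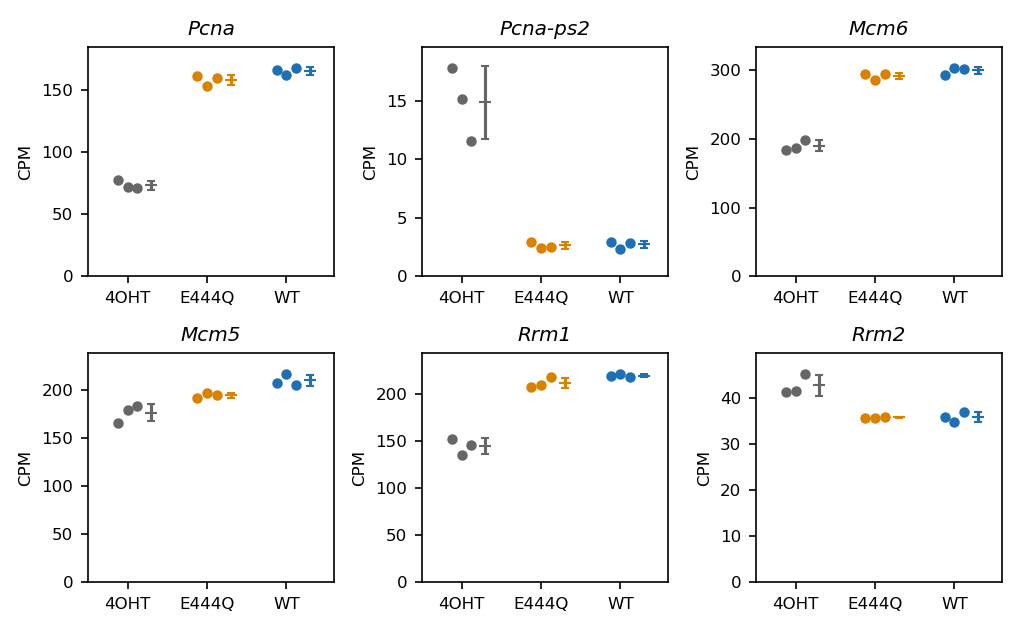
Points are libraries and the bar beside them is the group mean with its SD (n = 3), on an axis of CPM that starts at 0, for Pcna, its pseudogene Pcna-ps2, Mcm6, Mcm5, Rrm1 and Rrm2. Pcna, Mcm6 and Rrm1 are higher with both constructs, Mcm5 less so, and Pcna-ps2 and Rrm2 are lower.

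Levels of the members differed widely in the same cells. Per kilobase of exon, mean levels with 4OHT alone ran from 2.67 CPM per kilobase for Pola2 to 52.8 CPM per kilobase for Mcm3, with Mcm7 at 51.1, Mcm5 at 44.2 and Mcm2 at 44.1 CPM per kilobase. In CPM, before division by length, these controls were at 198 ± 18.1 for Mcm3, 226 ± 20.4 for Mcm7, 176 ± 8.92 for Mcm5 and 307 ± 33.2 for Mcm2 (mean ± SD, n = 3). The exon length is the union over annotated transcripts, which lowers the value of genes with long rare exons.

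PRMT5 (E444Q) and PRMT5 (WT) were compared directly in the same fit. No member was called in either direction, where 2.12% of all genes tested were called higher and 1.06% lower with PRMT5 (E444Q). The 40 log2 fold changes ran from -0.13 (Mcm2) to 0.10 (Gins2), 31 negative and 9 positive, with a median of -0.04 beside 0.01 for all genes. 1 member, Mcm5, had an unadjusted p below 0.05 (0.0431, edgeR adjusted p = 0.373), as had 2791 of all 22452 genes tested. The 95% intervals held 0 for 39 genes and lay wholly within 0.3 of 0 for 38. The lowest bound was -0.28 for Mcm2 and the highest 0.38 for Gins2, so differences of that size are not excluded for these genes. In 11 members every PRMT5 (E444Q) library lay below every PRMT5 (WT) library: Mcm2, Mcm3, Mcm5, Mcm7, Mcm10, Prim2, Pole, Pcna, Rfc1, Fen1 and Lig1. In no member did all lie above. Over all genes tested, 12.8% were wholly lower and 13% wholly higher. Mcm2 was at 315, 329 and 310 CPM with PRMT5 (E444Q) and 342, 357 and 349 CPM with PRMT5 (WT), and Prim2 at 58.4, 55.9 and 59.6 against 60.5, 65.6 and 62.3 CPM. When only these 6 libraries were fitted, 10 members had an unadjusted p below 0.05 and Mcm2 was called lower (edgeR adjusted p = 0.0226). In that fit 822 of all 23304 genes tested were called higher and 743 lower, so 1 lower call among 40 members is near that share. The median was -0.02 with scaling by total counts and -0.003 with no filter on low counts. In this comparison the 16 fibroblast markers were all called higher with PRMT5 (E444Q) and 15 of the 16 germ cell markers had negative log2 fold changes, none called, with a median of -0.08. Of the 16 macrophage markers 9 were called lower with PRMT5 (E444Q) and none higher, with a median of -0.93. The part of these cells in the members' difference was not tested.

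**Figure D4:**
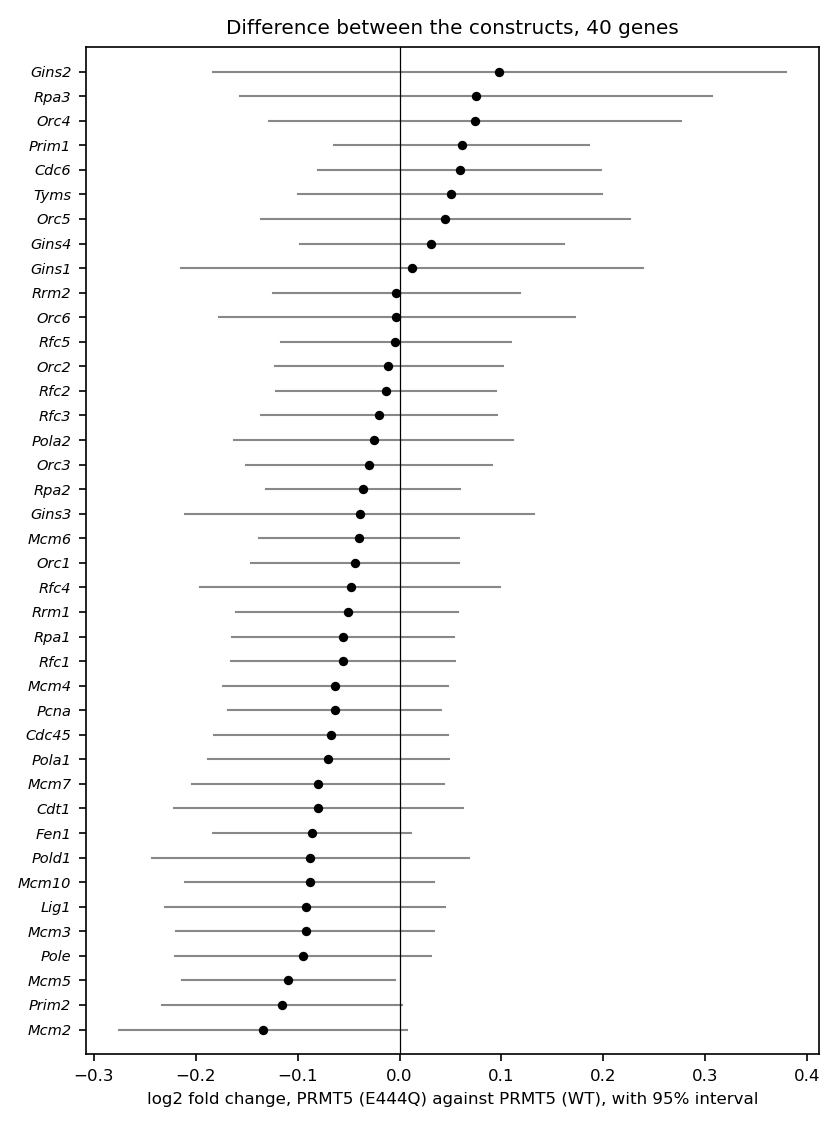
Points are the log2 fold changes of the 40 genes in PRMT5 (E444Q) against PRMT5 (WT), 3 libraries each, and lines their 95% intervals from the edgeR fit. Points run from -0.13 to 0.10, and all lines but that of Mcm5 cross 0.

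Of 65 other genes of the pathway, 44 were called higher and 8 lower with PRMT5 (WT), and 41 and 7 with PRMT5 (E444Q), beside 29.9% and 27.9%, and 29.5% and 26.5%, of all genes tested, at medians of 0.36 and 0.30. None was called between the constructs, where 2.12% of all genes tested were called higher and 1.06% lower. Of the 65, 7 had an unadjusted p below 0.05 (smallest edgeR adjusted p 0.154, Mcm8). That does not exceed the share over all genes tested, 2791 of 22452. Mcm8 was called lower with PRMT5 (E444Q) when only the 6 construct libraries were fitted (edgeR adjusted p = 0.0221), by limma-voom (0.041) and by DESeq2 (0.0389). Genes for licensing control and origin firing were called higher for 9 of 11 with both constructs. Mcm9 was the 1 called lower, with PRMT5 (WT) only, at -0.25 (edgeR adjusted p = 0.0116). It stood at -0.15 with PRMT5 (E444Q), and its call was lost in 4 of 18 other settings. Gmnn, the geminin gene whose product holds back CDT1, was at 25.3, 27.4 and 20.5 CPM in controls, 45.1, 43.4 and 44.95 CPM with PRMT5 (E444Q), and 45.1, 48.4 and 44.3 CPM with PRMT5 (WT). Mcm8, an MCM relative that acts in recombination, went from 41.8, 41.3 and 41.4 CPM to 79.3, 82.0 and 84.0 CPM and to 90.4, 90.7 and 89.1 CPM. Construct libraries were above all controls in both genes, with log2 fold changes of 0.87 and 0.91 for Gmnn and 0.98 and 1.12 for Mcm8. Among fork protection and checkpoint genes 6 of 8 were called higher with each construct, and among alternative clamp loaders and clamp-binding genes 4 of 5 and 3 of 5 (PRMT5 (E444Q) and PRMT5 (WT)). RNA primer removal and ligase genes were called higher for 2 of 4 with each.

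Chromatin assembly genes were called higher for 5 of 8 with PRMT5 (E444Q) and 7 of 8 with PRMT5 (WT). Over all genes tested, 29.5% and 29.9% were called higher and 26.5% and 27.9% lower. Chaf1b, a subunit of the chromatin assembly factor that works with PCNA, was at 45.7, 42.0 and 44.99 CPM in controls, 86.9, 85.9 and 81.1 CPM with PRMT5 (E444Q), and 86.5, 88.9 and 92.0 CPM with PRMT5 (WT). The construct libraries stood well apart from the controls (log2 fold changes of 0.94, SE 0.0531, and 1.01, SE 0.0533). Polymerase subunits outside the 40 were called higher for 3 of 6 with each construct. Lower calls did not exceed the share over all genes, at 1 of 6 with each construct. That 1 was Pold4, the smallest subunit of polymerase delta: 10.2, 8.74 and 7.73 CPM in controls, 4.60, 5.02 and 4.48 CPM with PRMT5 (E444Q), and 4.32, 4.63 and 4.21 CPM with PRMT5 (WT). All controls were above all construct libraries, at log2 fold changes of -0.92 (SE 0.121) and -1.02 (SE 0.123), and 24.6% of its exons are shared with another annotated gene on the same strand. Pold2 and Pold3, chosen for mention after their values were seen, rose by 0.81 and 0.83 and by 0.56 and 0.65, so that polymerase delta subunits moved in both directions.

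Nucleotide metabolism genes were called higher for 6 of 11 and lower for 2 with PRMT5 (E444Q), and higher for 7 and lower for 3 with PRMT5 (WT). Over all genes tested, 29.5% and 29.9% were called higher and 26.5% and 27.9% lower. The lower calls of this list do not exceed that share. Rrm2b, the p53-inducible alternative to Rrm2, was lower with both constructs, at log2 fold changes of -0.57 and -0.62. Cad was also called lower with both, at -0.30 and -0.18 (edgeR adjusted p = 0.00238 and 0.0436), the latter lost in 10 of 18 other settings. Tk1, the S-phase thymidine kinase, was called lower with PRMT5 (WT) at -0.37 and stood at -0.19 with PRMT5 (E444Q) (edgeR adjusted p = 0.0583), where it was called without the first control library (adjusted p = 0.0303), without the third (0.0422) or without the third PRMT5 (WT) library (0.0467). It was also called there with RLE factors (0.0317), with counts divided by 4 (0.0207), by limma-voom (0.00889) and by DESeq2 (0.0205). Rrm2b, Cad and Tk1 were also named after their values were seen. Among 12 E2F and pocket protein regulators, 6 were called higher and 4 lower with PRMT5 (E444Q), 7 and 3 with PRMT5 (WT). The lower calls in this list are near the share over all genes (26.5% and 27.9%). Rbl2, the pocket protein p130 that keeps resting cells out of the cycle, was at 25.4, 24.5 and 28.8 CPM in controls, 14.0, 14.4 and 15.03 CPM with PRMT5 (E444Q), and 13.2, 14.9 and 14.2 CPM with PRMT5 (WT). E2f4, a repressive E2F that pairs with it, was at 55.3, 57.1 and 58.4 CPM, 40.7, 36.8 and 38.9 CPM, and 34.5, 35.0 and 34.5 CPM in the same order. Both were lower in all construct libraries, with log2 fold changes of -0.86 and -0.90 for Rbl2 and -0.55 and -0.72 for E2f4. E2f1, an activating E2F, and Rbl1, the pocket protein p107, rose by 0.31 and 0.36 and by 0.39 and 0.43. Both were named after their values were seen. Of the others, E2f6 (0.60 and 0.61), E2f5 (0.42 and 0.38), E2f2 (0.30 and 0.42) and E2f7 (0.23 and 0.31) were also called higher. E2f3 was called lower (-0.42 and -0.39), and E2f8 only with PRMT5 (E444Q) (-0.43). Rb1 was called higher only with PRMT5 (WT) (0.205), and Tfdp1 was not called. 8 markers of dividing cells, fixed as a list, summed to 693.6 to 755.8 CPM with 4OHT alone, 1041 to 1067 CPM with PRMT5 (E444Q) and 1143 to 1152 CPM with PRMT5 (WT), with Mki67, the Ki-67 gene, at log2 fold changes of 0.74 and 0.82. With each construct 7 of the 8 were called higher and 1, the cyclin gene Ccnb2, lower (-0.34 and -0.19).

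**Figure D5:**
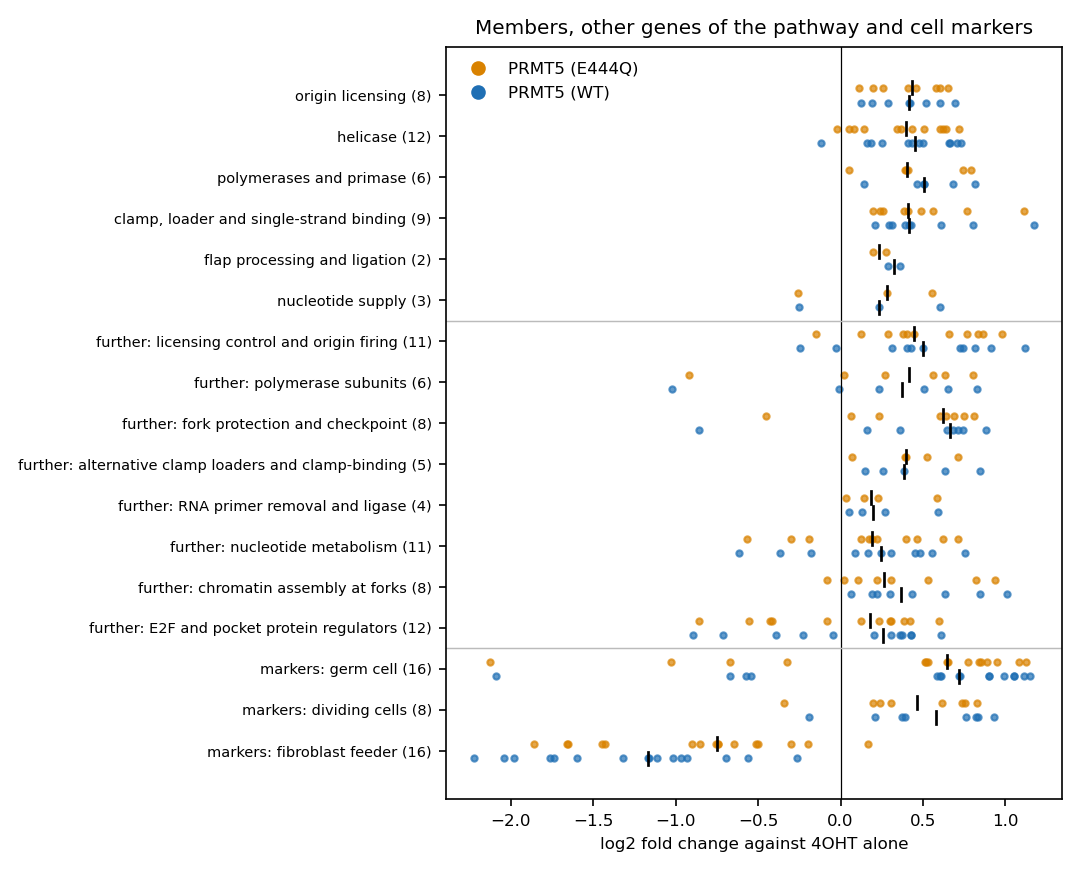
Each point is a gene, the horizontal axis its log2 fold change against 4OHT alone (orange PRMT5 (E444Q), blue PRMT5 (WT)), and black bars are list medians, with the number of genes in brackets. Medians of the member roles and of the further pathway lists lie right of 0, as do those of germ cell and dividing cell markers, and the medians of fibroblast feeder markers lie at -0.75 and -1.17.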

How the data were processed

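Raw whole-number gene counts were deposited by the authors for 9 libraries as 1 table. According to the labels, processing notes and methods, reads were trimmed (Trimmomatic 0.39), aligned with HISAT2 2.2.1 to GRCm38 and assembled with StringTie 2.2.1. The step from there to counts and the strand setting are not given in the sources used here, and totals run at about 4 counts per read pair. Genes were filtered with filterByExpr (minimum count 10, minimum total 15), scaled by TMM and tested with edgeR's quasi-likelihood test (edgeR 4.0.16, R 4.3.3) in 1 fit of all 9 libraries, with Benjamini-Hochberg adjustment over 22452 genes and calls at adjusted p under 0.05. Standard errors and 95% intervals derive from the F statistic. Coordinates, exon lengths and overlaps came from GENCODE vM21 (GRCm38), which held 53706 of the 53801 identifiers, near-identical copies from BLAST+ 2.17.0 (at least 400 bases at 95% identity), and promoter windows from RefSeq (GRCm38.p6).

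Members and lists were chosen with earlier results of these data known. Values in every library were given for the member with the largest and the smallest absolute log2 fold change of each role with PRMT5 (WT), for members with the opposite sign to the median, and for the 3 highest and 3 lowest called other pathway genes. Alternatives were DESeq2 1.42.0, limma-voom (limma 3.58.1) with quality weights, RLE, upper-quartile and total-count scaling, no filter, only the 6 libraries compared, a replicate block, counts divided by 4, and each library left out. Shares within complexes used exact permutation tests.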

Additional observations from a re-analysis of the deposited data

How the results depend on the processing

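Depth was ample, and 3 libraries a group set the limits: standard errors of the members' log2 fold changes between the constructs were 0.0441 to 0.13. Replicate numbers did not pair the samples (same-number correlations of -0.0195 to 0.0443), and with a replicate block 33 and 36 members were called higher and 1 lower against 4OHT alone, as without it, and none between the constructs. Of the medians and counts recomputed under the alternatives, 249 lay within the spread between replicates (1 SD, medians) or within 1.5 times the reported count, and 21 did not. The causes were not tested.

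For PRMT5 (E444Q) against 4OHT alone, the members' median of 0.401 was 0.371 with RLE factors, 0.513 with total counts only, 0.479 with upper-quartile factors, 0.463 with no filter, 0.371 with counts divided by 4 and 0.372 with DESeq2. Total counts moved the median of all genes by 0.113. For PRMT5 (WT) the median of 0.423 was 0.511 with total counts, 0.502 with upper-quartile factors, 0.447 with no filter, 0.388 with counts divided by 4, and 0.405 to 0.462 with a library left out. The count of lower members was 1 to 2 with a library left out, the second being Gins2 without 4OHT replicate 1. Between the constructs the median was -0.018 with total counts and -0.003 with no filter. Lower calls between the constructs were 1 member with only the 6 libraries, and among the further genes 6 with only the 6 libraries, 4 with limma-voom, 2 with DESeq2 and 0 to 2 with a library left out (1 without 4OHT replicate 1 and 2 without 4OHT replicate 3). Over all genes, 475 higher and 237 lower calls between the constructs were 822 and 743 with only the 6 libraries, 781 and 616 with limma-voom, and 713 and 427 with DESeq2.

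Signs turned for near-zero values. Rrm2 between the constructs was 0.021 with total counts, 0.036 with no filter, 0.000 with only the 6 libraries, 0.002 with counts divided by 4, and 0.001, 0.001 and 0.023 without 4OHT replicate 2, 4OHT replicate 3 and OE replicate 3. Gins2 with PRMT5 (E444Q) was 0.093 with total counts, 0.059 with upper-quartile factors, 0.042 with no filter, 0.145 without 4OHT replicate 2 and 0.058 without MU replicate 1 (-0.179 to 0.145 over the libraries left out), and with PRMT5 (WT) 0.043 without 4OHT replicate 2 (-0.280 to 0.043). Without 4OHT replicate 1, Mcm2 and Pold1 with PRMT5 (E444Q) were -0.027 and -0.048. Without 4OHT replicate 3, Orc4 with PRMT5 (WT) was -0.007 (-0.007 to 0.188). With PRMT5 (WT), calls of Cdt1, Mcm2 and Mcm7 were lost in several settings.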
